A study of Homo sapiens with 6 samples.

Results

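The genes described here act in homologous recombination, in the Fanconi anaemia pathway and in the DNA damage checkpoint. They are 34 genes that were listed by name, and each has a row of its own among the 26906 rows of the table of normalised read counts. RNA came from BE-(2)-C, an established human neuroblastoma line in which MYCN is amplified, and was isolated 48 hours after cells received either control siRNA or ELF4 siRNA. ELF4 is a transcription factor of the ETS family, which the series title ties to miR-124, to proliferation and to the undifferentiated state. Each of the 2 groups had 3 libraries of polyA-selected RNA from this 1 line, and the groups differed in the siRNA alone. No agent that damages DNA is named in the labels. The labels give neither the siRNA sequence nor a second siRNA against ELF4, and they do not say that the libraries came from separate cultures. P-values therefore rest on how far the libraries of a group differ, and that spread may be technical.

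Homologous recombination repairs a broken chromosome by copying the intact sister chromatid, and it works mainly in S and G2 phase, when that sister exists. The Fanconi pathway unhooks crosslinks between the DNA strands and protects stalled replication forks, handing the resulting break to recombination. The checkpoint kinases sense breaks or single-stranded DNA at stalled forks and hold the cell cycle while repair proceeds. Cells with amplified MYCN replicate under high stress, and these pathways are studied in neuroblastoma for that reason. Many of their genes are transcribed periodically, with a peak at the start of S phase.

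The targeted gene was low in every library treated with its siRNA. ELF4 had a normalised read count of 42.4, 38.8 and 46.8 in control replicates 1 to 3 and of 5.51, 5.61 and 3.10 in ELF4 siRNA replicates 1 to 3 (log2 fold change -2.96, limma adjusted p = 5.38e-07). The ELF4 siRNA values rest on 5, 5 and 3 reads. All libraries held 23148635 to 38097986 reads, with 5.81% to 6.44% of them in mitochondrial rows. The sympathetic neuroblast markers HAND2 (13138 to 18983 over the 6 libraries) and MYCN (66358 to 80148) were abundant in all libraries. TH was the lowest of the 9 markers on that list, at 376 to 448. Of the markers of other cell types, the fibroblast genes summed to 3838 to 3905 in control and to 3827 to 4133 in ELF4 siRNA libraries. That sum hides opposite moves, with 4 of 5 genes higher and 1 lower. PDGFRB fell from a mean of 1989 to 875 (log2 fold change -1.19). Among the 4 that rose, DCN went from 968 to 1722 (0.83) and COL3A1 from 82.8 to 284 (1.75). The other lists were low, at sums of at most 213 for epithelial, 204 for Schwann, 53.7 for blood and 15.7 for endothelial markers, and SOX10 and CDH1 were at most 10.3 in each library. The neuroblast list held 9 markers, of which ISL1, DBH and MYCN fell, CHGA and HAND2 rose and 4 others did not pass (median -0.08 on the log2 scale). Their sum, most of it CHGA and MYCN, was 188950 to 201246 in control and 211849 to 232726 in ELF4 siRNA libraries. The part of other cells in the results was not tested.

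After ELF4 siRNA, 28 of the 34 genes fell, 1 rose and 5 did not pass the test. A gene was called when its Benjamini-Hochberg adjusted p was under 0.05 in limma, fitted on log2(normalised read count + 1) over the 20339 genes that reached 10 in 3 or more libraries, and all 34 genes were among them. In that fit 24.4% of all genes fell and 20.7% rose (45.1% in either direction), so that 54.0% of the calls were falls. Under upper quartile scaling 3597 of the 20339 genes fell and 5939 rose, so that 37.7% of the calls were falls. With that scaling 26 of the 34 genes fell. In the reported fit, 32.8% fell among the 13056 genes whose mean reached 100, as did that of each listed gene. The median log2 fold change of the 34 genes was -0.40, against -0.00 over all genes tested and -0.03 over those with a mean of at least 100. The falls were moderate. The genes that fell kept 56.7% (FANCB) to 88.7% (ATR) of their control level, 12 genes lay below -0.5 on the log2 scale and 0 at -1 or below. For 26 genes every ELF4 siRNA library was below every control library. This pattern was shown by 28.2% of all genes tested and by 4753 of the 13056 genes whose mean reached 100. For 1 gene every ELF4 siRNA library was above every control library, which 25.4% of all genes tested showed. In RNA from whole cultures, fewer cells of a type and less RNA per cell cannot be told apart.

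**Figure D1:**
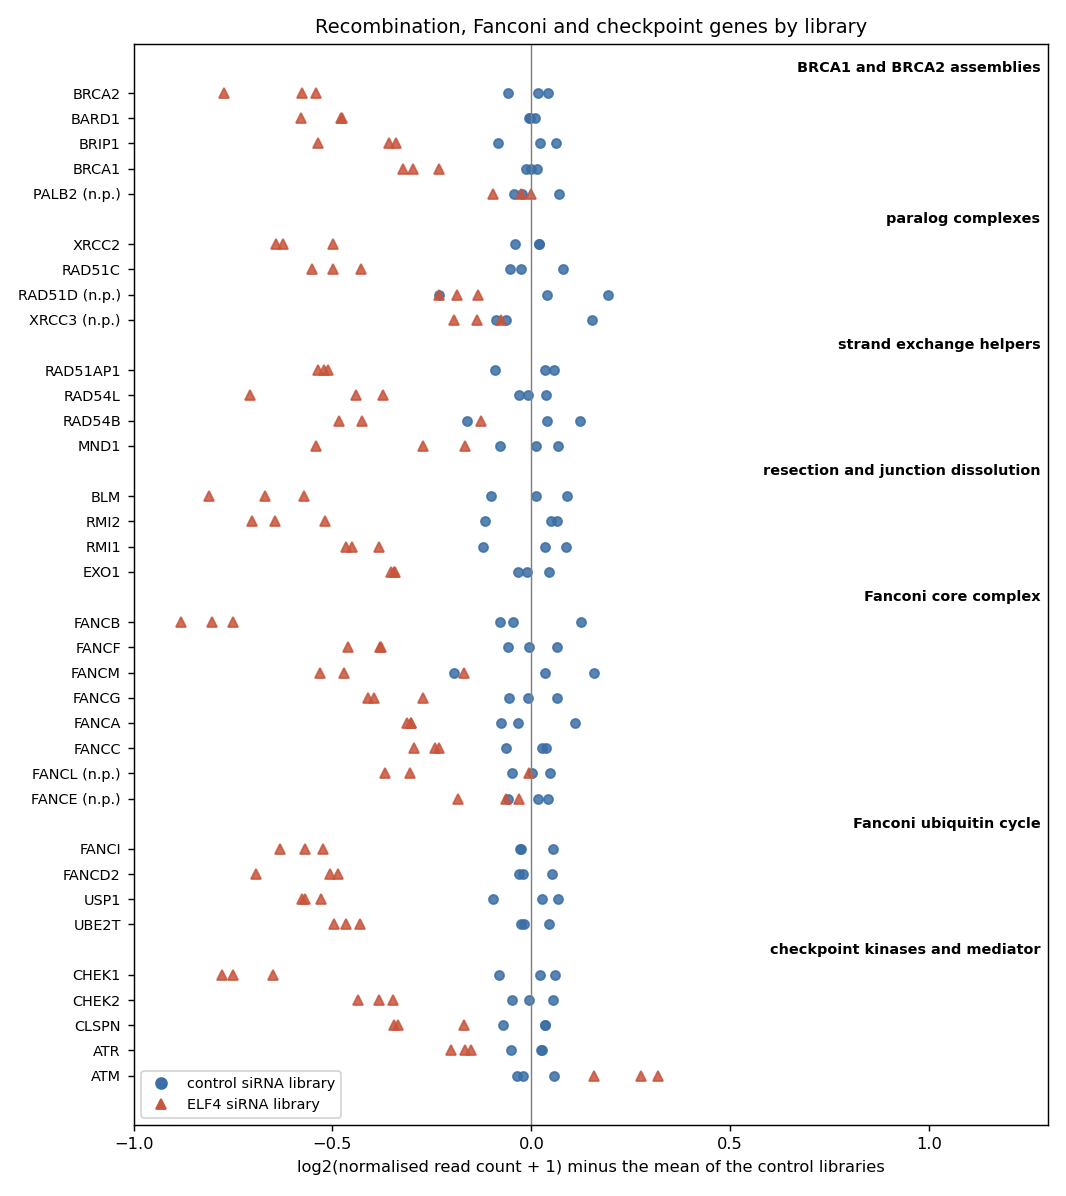
Each row is 1 gene, grouped by role, and the x axis gives log2(normalised read count + 1) minus the mean of the 3 control libraries. Circles are control siRNA libraries, triangles are ELF4 siRNA libraries, and n.p. marks the 5 genes that did not pass the test. The triangles lie left of the circles without overlap for 26 genes and right of them for ATM alone.

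Each ELF4 siRNA library was lower across the list. Relative to the control mean, the median of the 34 genes was -0.38, -0.47 and -0.43 on the log2 scale in ELF4 siRNA replicates 1, 2 and 3, while in the control libraries it lay between -0.02 and 0.02. The summed level of the 34 genes was 43918 to 44684 in the control libraries and 33963 to 35012 in the ELF4 siRNA libraries. Replicates were close, with a median coefficient of variation of 4.21% in control and 4.43% in ELF4 siRNA libraries. Each value rests on 78 to 6591 reads.

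**Figure D2:**
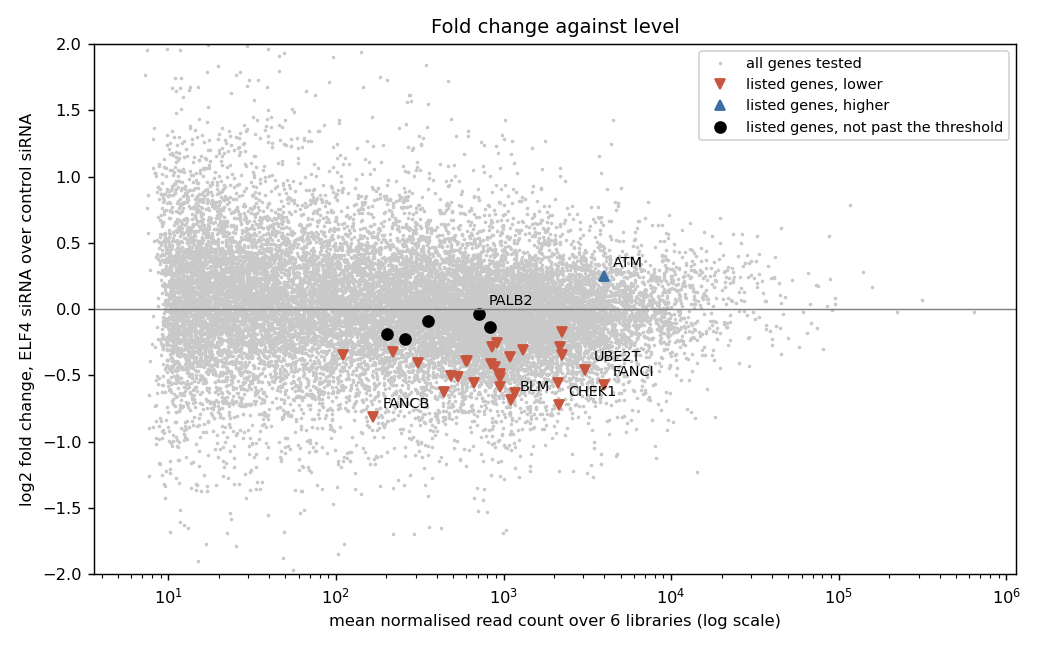
Log2 fold change between ELF4 siRNA and control siRNA libraries (y axis) against the mean normalised read count over the 6 libraries (x axis, log scale), with the listed genes as large symbols over all 20339 genes tested in grey. The y axis ends at 2 in both directions and leaves out 51 of all genes. The listed genes span means from about that of RAD54B (123 in control) to that of FANCI (4765 in control), and 33 of the 34 lie below 0.

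Levels differed widely between the genes when set per length of the GENCODE 29 principal transcript. UBE2T, the ubiquitin-conjugating enzyme of the Fanconi pathway, stood highest, at a control mean of 3900 normalised reads per kb. FANCI followed at 1011, EXO1 at 723, CHEK1 at 648 and USP1 at 628 per kb. CHEK1 and USP1 were closer to each other than their coefficients of variation between control libraries (4.95% and 5.82%). FANCB was at 70.7, RAD54B at 40.2 and RAD51D at 21.7 per kb. The levels of the last 2 are uncertain, since further reads of these genes were counted in rows shared with another gene name, and the transcript used for RAD51D is unusually long at 9988 bases.

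Promoter sequences were examined because most of the genes moved together and ELF4 binds DNA through the ETS domain. RefSeq windows (GRCh38.p14) of 300 bases, 250 before to 50 after a transcription start, were found for 31 of the 34 genes, at 43 starts. They were searched on both strands for CCGGAAG, the core preferred by many ETS factors, and for TTTNGCGC, a form of the E2F motif. They were also searched for CCAAT, the site of NF-Y, and for TTTGAA, the cell cycle homology region called CHR. Other forms of the E2F motif were not searched, and a gene without TTTNGCGC may hold such a form. None of these motifs contains another, though matches may overlap. Below are the windows of BLM, with a pair of ETS motif matches, and of FANCD2, with 1. Those of CHEK2, with a TTTNGCGC match, and of ATM, the gene that rose, follow. The windows are BLM at chr15:90717096-90717395 (plus strand), FANCD2 at chr3:10026187-10026486 (plus strand), CHEK2 at chr22:28741771-28742070 (minus strand) and ATM at chr11:108222817-108223116 (plus strand). Capitals mark the matches, and each sequence runs 5′ to 3′ on the strand of the gene.
BLM: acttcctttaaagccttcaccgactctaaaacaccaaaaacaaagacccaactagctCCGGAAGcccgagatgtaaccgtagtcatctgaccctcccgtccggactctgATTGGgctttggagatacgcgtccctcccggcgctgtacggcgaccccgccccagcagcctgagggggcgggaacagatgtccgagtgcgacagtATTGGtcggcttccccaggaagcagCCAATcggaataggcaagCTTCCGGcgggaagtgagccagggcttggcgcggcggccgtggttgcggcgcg
FANCD2: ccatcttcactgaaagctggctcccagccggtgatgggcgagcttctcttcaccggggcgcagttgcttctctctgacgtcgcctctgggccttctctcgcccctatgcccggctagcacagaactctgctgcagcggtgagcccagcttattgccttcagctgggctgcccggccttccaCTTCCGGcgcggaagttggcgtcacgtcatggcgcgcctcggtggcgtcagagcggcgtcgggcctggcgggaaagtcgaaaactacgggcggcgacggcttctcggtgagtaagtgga
CHEK2: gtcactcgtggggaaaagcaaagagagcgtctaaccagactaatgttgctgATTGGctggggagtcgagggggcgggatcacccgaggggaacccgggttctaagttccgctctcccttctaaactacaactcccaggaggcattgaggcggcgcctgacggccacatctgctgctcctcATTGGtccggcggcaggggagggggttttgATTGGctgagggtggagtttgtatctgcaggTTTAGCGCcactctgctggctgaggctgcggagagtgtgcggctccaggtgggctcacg
ATM: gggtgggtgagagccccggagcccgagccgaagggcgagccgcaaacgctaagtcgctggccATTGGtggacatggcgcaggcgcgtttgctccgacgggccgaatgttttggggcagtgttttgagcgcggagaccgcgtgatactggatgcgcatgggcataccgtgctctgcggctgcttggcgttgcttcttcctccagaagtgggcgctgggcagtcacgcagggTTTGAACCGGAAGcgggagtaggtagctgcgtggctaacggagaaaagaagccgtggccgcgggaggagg

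The ETS core was present for 8 of the 31 genes (25.8%), against 20.97% of the 10281 tested genes with a window. By window it was present in 9 of 43 (20.9%), against 15.6% of the windows of tested genes and 10.3% of all 35116 windows. RAD51D's match is 1 site that lies in 2 overlapping windows. The 8 genes with the core are BLM, BRCA2, FANCD2, USP1, ATR, PALB2, RAD51D and ATM, of which 5 fell. Among the 23 genes without it, 20 fell. The median log2 fold change was -0.37 with and -0.39 without the core. In BLM it begins 193 and 3 bases before the start, in FANCD2 69 bases before it, and in ATM 14 bases before it, directly after a CHR match. The E2F form TTTNGCGC was present for 4 genes (12.9%, against 3.44% of tested genes), which were EXO1, MND1, FANCC and CHEK2. By window it was present in 5 of 43 (11.6%), against 2.48% of the windows of tested genes and 1.79% of all windows, and MND1's match is 1 site that lies in 2 overlapping windows. All 4 fell, as did 21 of the 27 genes without it. CCAAT was present for 17 genes (54.8%, against 42.9% of tested genes) and in 48.8% of the windows, against 34.4% of those of tested genes and 34.6% of all. CCAAT sites of RAD54L and CHEK1 were likewise counted in several overlapping windows. The CHR was present for 5 genes (16.1%, against 13.9% of tested genes) and in 11.6% of the windows, against 10.7% of those of tested genes and 15.2% of all. A match describes letters in a window and says nothing about binding.

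**Figure D3:**
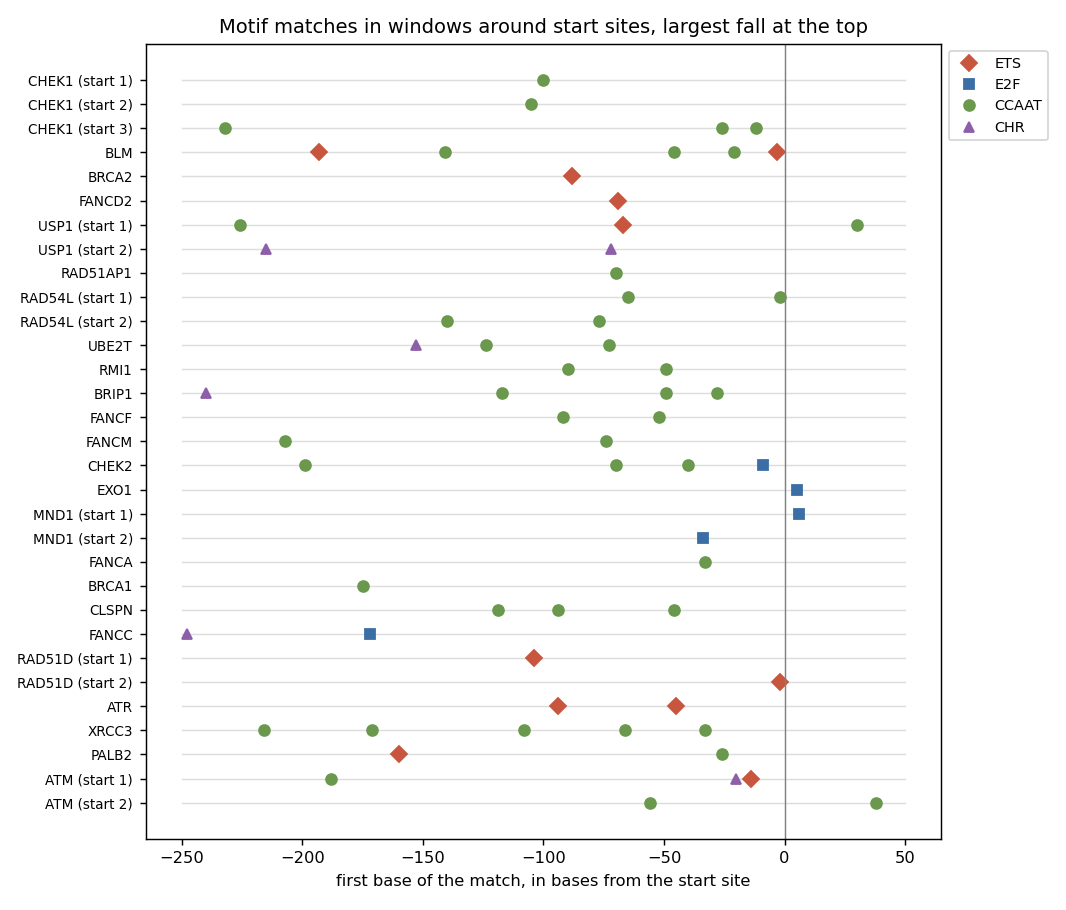
Positions of the 4 motifs (symbols) in windows of 300 bases around the start sites of the listed genes, ordered from the largest fall at the top to ATM at the bottom. The x axis is the first base of the match in bases from the start site, and windows without a match are not drawn. ETS matches occur both in genes near the top, such as BLM and FANCD2, and in ATR, PALB2 and ATM at the bottom.

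The BRCA1 and BRCA2 assemblies prepare a break for strand exchange, and 4 of these 5 genes fell. BRCA2, which helps build the protein filament on single-stranded DNA, had 1357, 1429 and 1454 normalised reads in control replicates 1 to 3 and 947, 826 and 971 in ELF4 siRNA replicates 1 to 3. The groups were far apart, and the mean went from 1413 ± 50.3 to 915 ± 77.6 (SD, n = 3 libraries per group here and below; log2 fold change -0.63, SE 0.06, limma adjusted p = 1.94e-06). PALB2, the bridge between BRCA1 and BRCA2, had 713, 704 and 761 in control and 725, 679 and 713 in ELF4 siRNA libraries. Its groups overlapped, and its log2 fold change of -0.04 (95% confidence interval -0.16 to 0.08, limma adjusted p = 0.593) does not show that it was unaltered. BRCA1 itself had 2410.2, 2386 and 2362 in control and 1941, 2031 and 1908 in ELF4 siRNA libraries, a small but tight difference (-0.28). BARD1, which forms a ubiquitin ligase with BRCA1, fell from 629.6 ± 3.24 to 442 ± 17.9 (-0.51), and the helicase gene BRIP1 from 957 ± 49.2 to 720.1 ± 53.2 (-0.41).

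The paralog genes RAD51C, RAD51D, XRCC2 and XRCC3, whose products help that filament form and persist, were divided, with 2 of 4 lower and 2 that did not pass. XRCC2 had 1159, 1112 and 1158 in control and 809, 732 and 741 in ELF4 siRNA libraries (log2 fold change -0.59, SE 0.05, limma adjusted p = 1.08e-06). RAD51C, a partner in both paralog complexes, fell from 1114 ± 54.1 to 791 ± 34.4 (-0.49). XRCC3, which pairs with RAD51C in a complex of its own, had 835, 969 and 819.6 in control and 762, 792 and 827 in ELF4 siRNA libraries. These ranges touch, and the difference of -0.14 did not pass (interval -0.28 to 0.01, adjusted p = 0.112). RAD51D had 182.79, 246 and 221 in control and 182.86, 189 and 196 in ELF4 siRNA libraries. Control replicate 1 lay just below all ELF4 siRNA values and the other controls above them (-0.18, interval -0.40 to 0.03, adjusted p = 0.157). Without control replicate 1 the adjusted p of RAD51D in limma was 0.0251. A further row joins RAD51D with its read-through transcript into RFFL, and it went from 149 ± 24.9 to 98.6 ± 8.63. With that row added, RAD51D had 309.99, 422 and 363 in control and 289, 289.6 and 285 in ELF4 siRNA libraries, which no longer overlap (-0.33, limma adjusted p = 0.0103), an alternative chosen after the data were seen.

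Strand exchange needs helpers that act with the filament, and all 4 such genes fell. RAD51AP1, which stimulates strand invasion, had 1150.4, 1056 and 1169 in control and 782, 774 and 789 in ELF4 siRNA libraries. The ELF4 siRNA values were close together and all below the controls (-0.52, SE 0.05, limma adjusted p = 2.75e-06). RAD54L, a DNA motor protein gene, fell from 572 ± 13.9 to 404 ± 47.9 (-0.51). Its relative RAD54B was the least secure call of the list. RAD54B had 134, 109.7 and 126 in control and 112, 87.6 and 91.1 in ELF4 siRNA libraries, and ELF4 siRNA replicate 1 lay above control replicate 2 (-0.35, SE 0.12, limma adjusted p = 0.0305). The call was lost when control replicate 1 (limma adjusted p = 0.128) or control replicate 3 (0.0828) was left out. Leaving out ELF4 siRNA replicate 2 (0.112) or ELF4 siRNA replicate 3 (0.091) ended it as well. With all libraries kept, it was lost under upper quartile scaling (limma adjusted p = 0.0854), in limma without a trend (0.0705) and in DESeq2 on recovered reads (0.109). The row that joins RAD54B with FSBP, with more reads, went from 430.3 ± 43.6 to 343 ± 16.9 (-0.32, limma adjusted p = 0.00435). MND1, known from strand exchange in meiosis, had 246, 231 and 256 in control and 217, 167 and 202 in ELF4 siRNA libraries (-0.33, limma adjusted p = 0.0134). Leaving out ELF4 siRNA replicate 2 ended the MND1 call (-0.22, limma adjusted p = 0.062), and so did limma without a trend (adjusted p = 0.0564).

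All 4 genes of end resection and junction dissolution fell. BLM, the helicase mutated in Bloom syndrome, had 1377, 1274 and 1452 in control and 919, 858 and 778 in ELF4 siRNA libraries. The groups were well separated, with 62.3% of the control level left (-0.68, SE 0.07, limma adjusted p = 1.65e-06). RMI1 and RMI2 form a complex with BLM that separates joined DNA molecules. RMI1 had 1044, 937 and 1084 in control and 746, 737 and 781 in ELF4 siRNA libraries (-0.43, limma adjusted p = 4.72e-05), and RMI2 had 555, 495 and 561 in control and 343, 329 and 374 in ELF4 siRNA libraries (-0.62, limma adjusted p = 9.06e-06). EXO1, the nuclease that chews back the broken end, fell from 2510.5 ± 71.7 to 1973 ± 6.20 (-0.35).

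In the Fanconi core complex, the ubiquitin ligase assembly of the pathway, 6 of 8 genes fell. FANCB, an X-linked gene whose product holds the ligase module together, showed the largest fall of all 34 genes. It had 205, 201 and 232 in control and 121, 126 and 115 in ELF4 siRNA libraries (-0.81, SE 0.09, limma adjusted p = 6.19e-06). FANCL, the ligase subunit itself, had 285, 276 and 267 in control and 214, 223 and 275 in ELF4 siRNA libraries. ELF4 siRNA replicate 3 lay among the controls (-0.23, interval -0.43 to -0.03, adjusted p = 0.0617), and without it the limma adjusted p was 0.00446. FANCE, the subunit that contacts FANCD2, had 351, 370.1 and 377 in control and 358, 350.2 and 322 in ELF4 siRNA libraries, which overlap (-0.09, interval -0.24 to 0.05, adjusted p = 0.295). The other 5 lay between these, each with its groups apart except FANCM. FANCF, an adaptor of the complex, fell from 349.8 ± 15.1 to 264 ± 8.64 (-0.41) and FANCG from 1236 ± 51.8 to 963 ± 50.9 (-0.36). FANCA, the gene most often mutated in Fanconi anaemia, fell from 1448 ± 99.4 to 1169.8 ± 4.77 (-0.31) and FANCC from 992 ± 38.4 to 830.0 ± 19.7 (-0.26). FANCM encodes the DNA translocase that anchors the complex, and it fell from 674 ± 81.8 to 514 ± 71.4 (-0.39). FANCM passed (limma adjusted p = 0.00479) although ELF4 siRNA replicate 1 (596) lay above control replicate 2 (586). In limma without a trend it did not pass (adjusted p = 0.0628).

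The ubiquitin cycle on which the core complex acts fell as a whole, with 4 of 4 genes and a median log2 fold change of -0.56. FANCI, which forms with FANCD2 the clamp that receives the ubiquitin, had 4947, 4680.2 and 4669 in control and 3311, 3212 and 3074 in ELF4 siRNA libraries. The 2 sets do not overlap (-0.57, SE 0.04, limma adjusted p = 1.66e-07). FANCD2 had 778, 819 and 773 in control and 564, 556 and 489 in ELF4 siRNA libraries (-0.56, SE 0.06, limma adjusted p = 8.09e-06). FANCI kept 67.1% of its control level and FANCD2 67.8%. The conjugating enzyme gene UBE2T had 3497, 3649 and 3479.6 in control and 2566, 2512 and 2628 in ELF4 siRNA libraries (-0.46, SE 0.04, limma adjusted p = 7.87e-07). USP1, the gene of the enzyme that takes the ubiquitin off again, had 2556, 2346 and 2627 in control and 1736, 1680.3 and 1690.1 in ELF4 siRNA libraries (-0.56, SE 0.05, limma adjusted p = 6.79e-07). Neither gene's groups overlap. WDR48, which encodes the activator of USP1 and is no member of the list, was 624 ± 30.6 in control and 658 ± 12.7 in ELF4 siRNA libraries and did not pass (limma adjusted p = 0.302). WDR48 was picked for its link to USP1 and not by the rule given below for genes of other lists.

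Among the checkpoint genes, 4 fell and 1 rose. CHEK1, the kinase that holds back cells with stalled forks, had 2799, 2542 and 2729 in control and 1712, 1597 and 1567 in ELF4 siRNA libraries. It had the smallest adjusted p of all 34 genes, with 60.4% of the control level left (-0.73, SE 0.05, limma adjusted p = 8.13e-08). ATR, the kinase that activates CHEK1, moved little, from 2394, 2269.8 and 2389 in control to 2117, 2093 and 2044 in ELF4 siRNA libraries (-0.17, limma adjusted p = 0.00451). CLSPN, the gene of claspin, which presents CHEK1 to ATR, fell from 932 ± 39.2 to 766 ± 53.1 (-0.28), and CHEK2, the kinase downstream of ATM, from 685 ± 24.3 to 523 ± 15.8 (-0.39).

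ATM, the kinase activated by double-strand breaks, was the 1 gene that rose, and its values are given in full because of that. It had 3522, 3756 and 3559.6 in control and 4372, 4031 and 4503 in ELF4 siRNA libraries. All 3 ELF4 siRNA values lay above all 3 controls (0.25, SE 0.05, interval 0.15 to 0.35, limma adjusted p = 0.000656). ATM remained a rise with an adjusted p under the threshold in each alternative run. ATM and ATR therefore moved in opposite directions, except that the fall of ATR was not called under upper quartile scaling (-0.09, adjusted p = 0.112).

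Whether paired genes changed unequally was asked with 8 ratios, each formed within a library. ATR and ATM, CHEK1 and CHEK2, and RAD54L and RAD54B are pairs of related genes. In the other pairs the products bind or oppose each other. The log2 ratio of BRCA2 over PALB2 went from 0.96 ± 0.05 to 0.37 ± 0.08, a difference of -0.59 with an SE of 0.06. For ATR over ATM the difference was -0.42 (SE 0.08), for CHEK1 over CHEK2 -0.34 (SE 0.08), for RMI2 over RMI1 -0.19 (SE 0.03) and for BRCA1 over BARD1 0.23 (SE 0.06). In these 5 ratios the groups did not overlap. An exact two-sided permutation test gave p = 0.1 for each of them (0.16 after Benjamini-Hochberg adjustment over the 8 ratios), which is the smallest p that 3 libraries against 3 allow, so 0.05 cannot be reached. In FANCD2 over FANCI the difference was 0.01 (SE 0.06, exact permutation p = 0.9), in UBE2T over USP1 0.10 (SE 0.07, p = 0.4) and in RAD54L over RAD54B -0.16 (SE 0.16, p = 0.3), and these groups overlapped. A difference in the last 3 of the size of their SE cannot be told from none. How often the ratios of other gene pairs separate the groups was not determined. Of single genes tested, 28.2% lay wholly lower and 25.4% wholly higher after ELF4 siRNA, so 5 of 8 is no result about partners.

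**Figure D4:**
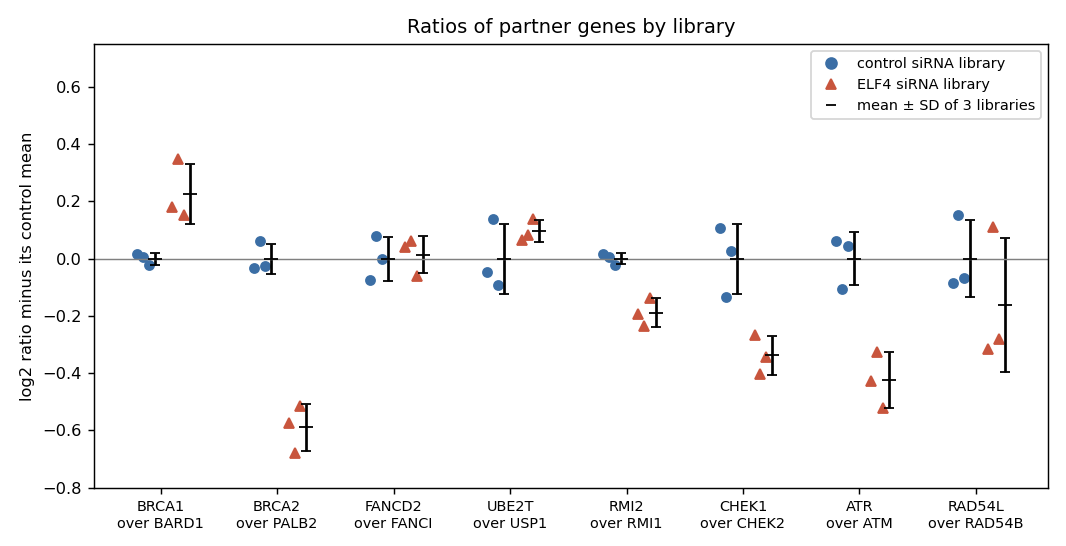
Log2 ratio of each pair of genes minus its mean in the control libraries (y axis), with circles for the 3 control siRNA libraries, triangles for the 3 ELF4 siRNA libraries and bars for mean ± SD. The ELF4 siRNA libraries lie apart from the controls for 5 of 8 pairs, and farthest for BRCA2 over PALB2. The share among other gene pairs was not determined.

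Further genes of the same pathways were counted in the same fit, and their difference from the listed genes was not tested. Homologous recombination has 29 other genes on the list used, of which 17 fell and 1 rose (11 not passed, median -0.25 on the log2 scale). RPA3, a subunit of the protein that coats single-stranded DNA, fell from 1369 ± 19.9 to 845 ± 28.4 (-0.70) and the resection nuclease gene DNA2 from 1317 ± 49.7 to 818 ± 24.1 (-0.69), while RAD50, a subunit of the complex that first binds the break, rose from 2255 ± 132 to 2661 ± 19.3 (0.24). PSMC3IP, the partner of MND1 (-0.29), and TOP3A, the topoisomerase that works with BLM (-0.27), fell too. These last 2 were picked for their link to listed genes after the values were seen. Of 13 other genes of the Fanconi pathway and crosslink repair, 8 fell, 1 rose and 4 did not pass (median -0.22). MAD2L2, a subunit of the polymerase zeta complex that copies past lesions, fell from 475 ± 15.9 to 232 ± 20.03 (-1.04), RFWD3, a ubiquitin ligase gene, fell by 0.51 on the log2 scale, and the nuclease gene FAN1 rose from 607 ± 34.3 to 809.8 ± 4.62 (0.42).

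In the checkpoint, 15 of 21 other genes fell, 1 rose and 5 did not pass (median -0.30). TOPBP1, the activator of ATR, fell from 4771 ± 149 to 3440.5 ± 35.4 (-0.47), DTL, a ubiquitin ligase adaptor gene, had -0.46, and the kinase gene BRSK1 rose (0.41). The 12 genes of the BRCA1-A complex and of chromatin at breaks moved both ways, with 4 lower (33.3%), 3 higher (25%) and 5 that did not pass (median -0.05). Among all genes whose mean reached 100, 32.8% fell and 24.7% rose, so these shares are near the background. MDC1, the scaffold that reads the phosphorylated histone H2AX, went from 4633 ± 212 to 2057 ± 157 (-1.17, limma adjusted p = 2.81e-09), and H2AFX, the gene of that histone, from 6432 ± 185 to 4011 ± 288 (-0.68). TP53BP1, which counters resection, rose (0.21), as did FAM175A, a member of the BRCA1-A complex (0.35).

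Outside recombination, the repair pathways gave mixed counts. Of 9 genes of non-homologous end joining, 6 fell and 2 rose (median -0.18), with XRCC4 at -0.71 and the repair polymerase genes POLM at 0.84 and POLL at 0.42. Mismatch repair had 4 of 7 genes lower and 1 higher (median -0.30), with MSH6 at -0.34 and PMS2 at 0.24. In base excision repair 5 of 18 fell (27.8%) and 3 rose (16.7%), among them TDG (-0.52), NTHL1 (-0.37) and MPG (0.33) (median -0.04). The share that fell lay between the 24.4% over all genes tested and the 32.8% over genes whose mean reached 100. The share that rose lay below the 20.7% and 24.7% over the same sets. In nucleotide excision repair 8 of 18 fell and 3 rose (median -0.11), with the TFIIH subunit gene GTF2H3 at -1.03, ERCC8 at -0.42, UVSSA at 0.41 and ERCC5 at 0.21. The difference between these lists and the recombination genes was not tested.

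**Figure D5:**
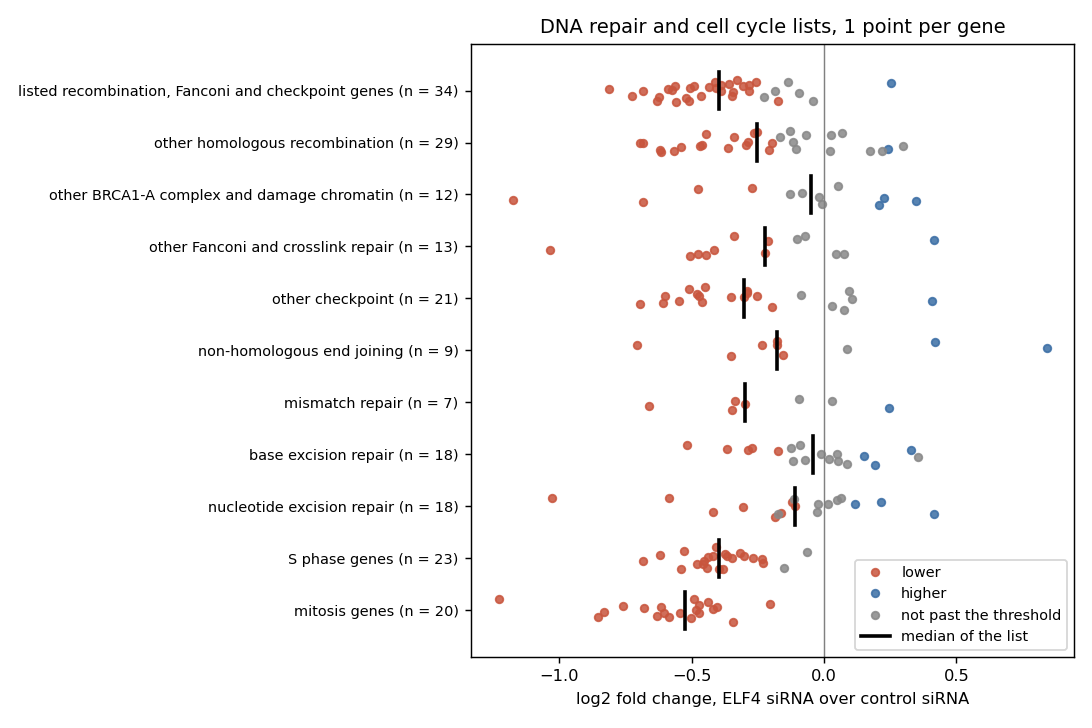
Log2 fold change between ELF4 siRNA and control siRNA libraries for each gene (points) of the recombination, Fanconi and checkpoint list and of 10 other lists, coloured by call, with black bars at the list medians. The medians run from -0.52 for mitosis genes and -0.40 for the listed genes and the S phase genes to -0.04 for base excision repair.

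Genes of the cell cycle moved with the recombination genes. Among the S phase genes 21 of 23 fell and 0 rose (median -0.40 on the log2 scale), and all 20 mitosis genes fell (median -0.52). The clamp PCNA fell from 8201 ± 58.9 to 5637 ± 115 (-0.54), the helicase subunit MCM2 from 9173 ± 354 to 5721 ± 445 (-0.68), TOP2A from 20131 ± 915 to 8589 ± 301 (-1.23) and CCNB1 from 7344 ± 120.3 to 4343 ± 144 (-0.76). The share of cells in each phase was not measured, and the part of cell cycle phase in the falls of the recombination genes was not tested.

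The 3′ UTRs of the listed genes were read for ACCTGTC and CCTGTCA, overlapping 7-mers that had been picked from these data because genes holding them had lower fold changes. All 34 genes have a 3′ UTR in their GENCODE 29 principal transcript, and 2 of them (5.88%) hold one of the 7-mers, against 19.04% of 9850 tested genes at a mean of 100 or more that have a 3′ UTR. The 3′ UTRs of the listed genes were shorter, with a median of 882.5 bases against 1220 bases, and the shares were not adjusted for length. The match in RAD51D lies at position 6573 of the 3′ UTR of the unusually long transcript named above. They are FANCF and RAD51D, shown with 10 bases on each side and the 7-mer in capitals.
FANCF: gacaattcctCCTGTCAgttgcgtgaa
RAD51D: gtggctcacgCCTGTCAtctcagcgct
FANCF fell (-0.41) and RAD51D did not pass (-0.18).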

How the data were processed

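PolyA-selected RNA of 6 libraries was sequenced, 3 per group. The values deposited by the authors are a signal, namely read counts of genes divided by a factor for each library. The tools TopHat, featureCounts and DESeq2 and the build hg19 are named in the submitters' processing notes. Versions, annotation, strand setting and filters: not given in the sources used here. All values (100%) were whole multiples of 1 read within 0.001, so reads were recovered. Several gene names are joined in 2148 rows.

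Values were tested with limma 3.58.1 (R 4.3.3) with a trend on log2(value + 1), which understates changes of low genes, without covariates, over genes with at least 10 in at least 3 libraries. Libraries of a group differed by more than sampling noise (chi-square per degree of freedom 2.05 to 5.78). Members, lists, motifs and tests were chosen with earlier results of these data known. Of each role, the genes with the smallest and the largest adjusted p and those that did not pass are given by library; of each other list, the 2 smallest adjusted p and up to 2 genes moving against the median. Alternatives were pseudocounts, filters, scalings, no trend, edgeR 4.0.16 and DESeq2 1.42.0 on recovered reads, a replicate block and leaving out each library. Promoters are from RefSeq, transcripts from GENCODE 29, a build other than hg19. A few genes that this rule names are not reported here. Python 3.11.15 and scipy 1.17.1 were used.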

Additional observations from a re-analysis of the deposited data

How the results depend on the processing

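Of 578 values of the listed genes under 17 alternatives, 563 kept their side of the threshold, 11 lost the call and 4 gained it. The lost calls were those of RAD54B, MND1, FANCM and ATR, and the gained ones those of FANCL and RAD51D. All kept their direction except PALB2 under upper quartile scaling (0.05), which passed under neither. That scaling moved the median of the listed genes to -0.31 and the median of all genes to 0.08, and of all its calls 37.7% were lower, against 54.0% in the reported fit. For FANCD2 over FANCI the difference ran from -0.0242 to 0.0526 when 1 library was left out, and turned negative without control replicate 1 (-0.0242) and without ELF4 siRNA replicate 2 (-0.01), and the cause was not tested. A replicate block called 9910 genes instead of 9173, and 30 listed genes, 29 of them shared. Libraries with the same number correlated at 0.03 to 0.07 in their deviations from the group means. These correlations were small, but every library correlated best with its own number. The labels do not say whether libraries with the same number share a culture or batch, and the reported fit did not pair them. RAD54B had 78 or more reads in each library.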
